A study of Mus musculus with 18 samples.

Results

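The 5 interferon-induced transmembrane genes Ifitm1, Ifitm2, Ifitm3, Ifitm6 and Ifitm10, and Bst2, which encodes tetherin, were followed by gene name through the count and RPKM tables of mouse spleen. They are 6 of 55385 genes in the table, and all 6 passed the filter on low counts that left 18634 genes to be tested. Poly(A) RNA came from the spleens of 18 adult mice of 3 genotypes, 6 libraries each with 3 males and 3 females. Dp16_2xIFNRs mice carry the Dp16 duplication with their interferon receptor genes brought back to the normal copy number. Dp16 mice carry an extra copy of a stretch of chromosome 16 that corresponds to much of human chromosome 21, the receptor genes included. WT mice are C57BL/6J without the duplication. The labels give no treatment, and ages of 17.1 to 18.0 that are tagged as days after conception, a unit not interpreted here. The spleens were whole tissue, so each value is a mean over many cell types.

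Interferons bind receptors at the cell surface and act through STAT and IRF proteins on promoters that hold an interferon-stimulated response element, ISRE. IFITM proteins are small membrane proteins made in answer to interferon, which hinder the fusion of enveloped viruses with cell membranes. Tetherin acts at the other end of the viral cycle and holds budding particles on the surface of the cell that made them. In the spleen, tetherin is known as a surface marker of resting mouse plasmacytoid dendritic cells, which make much type I interferon.

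None of the 6 genes lies on the duplicated chromosome. On GRCm38, with gene positions from GENCODE vM21, 4 of them form a cluster on chromosome 7: Ifitm2 (140954837 to 140955987, minus strand), Ifitm1 (140967221 to 140969825, plus strand), Ifitm3 (141009586 to 141010770, minus strand) and Ifitm6 (141015699 to 141017924, minus strand). Ifitm10 lies apart on chromosome 7 (142325837 to 142373753, minus strand), and Bst2 lies on chromosome 8 (71534255 to 71537456, minus strand). The promoter windows of 4 of these genes are shown because they separate the genes by motif. They are RefSeq sequences of GRCm38.p6 on the strand of the gene, 300 bases each, from 250 bases before the RefSeq start to 50 bases from it on. In Ifitm3 (chr7:141010695-141010994, minus strand), Ifitm2 (chr7:140955912-140956211, minus strand) and Bst2 (chr8:71537423-71537722, minus strand), capitals mark matches to the ISRE core, which is GAAA, any 2 bases and GAAA again. Ifitm6 (chr7:141016843-141017142, minus strand) holds no such match, and its capitals mark the matches to the ETS core GGAAGTG, here on the other strand, and to the STAT-type motif TTCNNNGAA, known as GAS.
Ifitm3: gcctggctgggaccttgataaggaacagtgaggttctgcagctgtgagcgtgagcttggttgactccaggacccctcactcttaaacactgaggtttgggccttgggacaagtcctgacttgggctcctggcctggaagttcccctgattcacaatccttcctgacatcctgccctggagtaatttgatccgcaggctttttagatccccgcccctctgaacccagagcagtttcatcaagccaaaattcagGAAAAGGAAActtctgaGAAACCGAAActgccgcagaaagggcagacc
Ifitm2: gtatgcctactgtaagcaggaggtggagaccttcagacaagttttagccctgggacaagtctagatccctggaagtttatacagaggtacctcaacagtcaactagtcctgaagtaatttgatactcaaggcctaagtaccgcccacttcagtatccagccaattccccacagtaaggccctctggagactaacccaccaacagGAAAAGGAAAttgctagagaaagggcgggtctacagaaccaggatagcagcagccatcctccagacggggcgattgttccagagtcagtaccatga
Bst2: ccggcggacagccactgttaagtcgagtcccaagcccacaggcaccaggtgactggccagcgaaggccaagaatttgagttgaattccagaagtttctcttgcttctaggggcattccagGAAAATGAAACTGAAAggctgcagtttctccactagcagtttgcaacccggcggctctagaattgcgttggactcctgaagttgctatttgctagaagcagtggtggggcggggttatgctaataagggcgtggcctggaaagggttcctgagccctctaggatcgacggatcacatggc
Ifitm6: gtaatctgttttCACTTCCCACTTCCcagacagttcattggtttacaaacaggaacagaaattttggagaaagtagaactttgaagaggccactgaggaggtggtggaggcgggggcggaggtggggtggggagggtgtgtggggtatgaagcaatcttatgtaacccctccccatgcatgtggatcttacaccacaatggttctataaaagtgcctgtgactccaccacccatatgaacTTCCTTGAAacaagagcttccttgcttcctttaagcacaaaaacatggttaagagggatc

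Each motif was searched on both strands. The ISRE core was present in 3.44% of 32851 promoter windows of the same length, GAS in 8.30% and the ETS core in 11.0%. Ifitm3 held ISRE cores at bases 3 to 12 (GAAAAGGAAA) and 20 to 29 (GAAACCGAAA), with base 1 as the RefSeq start. Ifitm2 held the same letters as the first of these, GAAAAGGAAA, but upstream, at bases -46 to -37. Bst2 held an overlapping pair at bases -130 to -121 (GAAAATGAAA) and -124 to -115 (GAAACTGAAA). GAS matches lay at bases 14 to 22 in Ifitm3, -136 to -128 in Bst2 and -10 to -2 in Ifitm6, and those of Ifitm3 and Bst2 overlapped an ISRE core. The ETS core, the letters read by PU.1 and related factors, was found in Ifitm6 at bases -238 to -232 and -231 to -225. The windows of Ifitm1 and the 3 windows of Ifitm10 held none of the 3 motifs. The windows depend on the annotated start, which GENCODE places 26 bases further upstream for Ifitm3 and Ifitm2, 855 for Ifitm1 and 1032 for Ifitm6. A match is a stretch of letters and not a measured binding site. Of 40 interferon-stimulated antiviral genes chosen for comparison, 30 had a window and 18 of these (60%) held an ISRE core in any of their windows. Counted by gene in the same way, the share was 3.99% of 27025 genes.

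**Figure D1:**
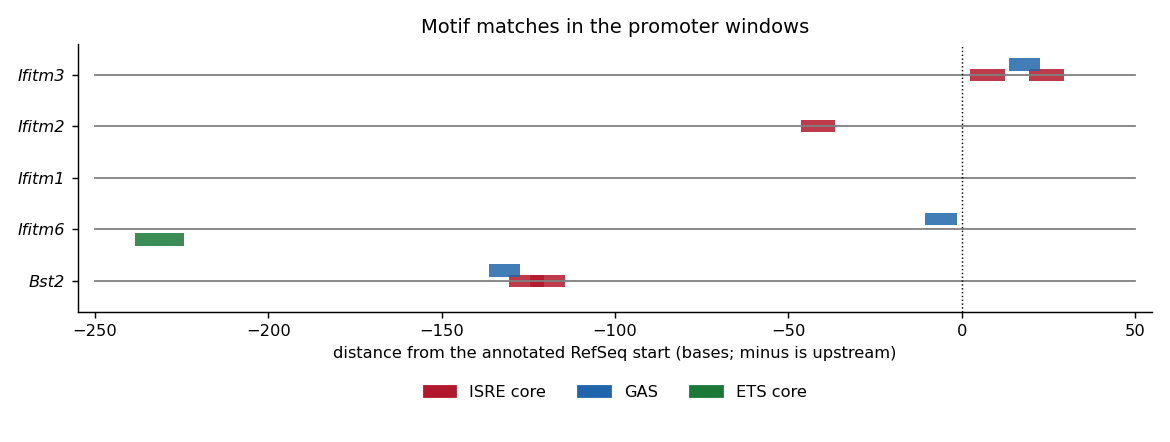
Matches to the ISRE core, GAS and ETS core in the promoter windows of the genes, by distance in bases from the annotated RefSeq start on the horizontal axis. ISRE cores appear in Ifitm3, Ifitm2 and Bst2, and the ETS core in Ifitm6 alone among the windows drawn.

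Library totals ran from 33998427 to 53021480 counts, and the sex label was borne out in 18 of 18 libraries. The summed level of the 4 receptor genes was 308 to 342 TMM-normalised CPM in Dp16_2xIFNRs, 424 to 503 in Dp16 and 337 to 363 in WT, which follows the genotype labels. TMM-normalised CPM, counts scaled by library size and by edgeR's trimmed mean factors, is called normalised CPM below. These factors averaged 0.974 in Dp16_2xIFNRs, 0.974 in Dp16 and 1.06 in WT. The share of counts on Gm42418, which overlaps a ribosomal RNA repeat, ranged from 0.691% to 5.51%, and 4 libraries exceeded 4%.

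In spleen RNA per unit of length, given by the authors' RPKM, Ifitm3 was the most abundant of the 6 genes. Its RPKM was 225 in Dp16_2xIFNRs, 227 in Dp16 and 195 in WT (means, n = 6 each). Ifitm3 encodes the endosomal family member best known for restricting influenza virus. Ifitm2, a close relative, had a mean RPKM of 144 in Dp16_2xIFNRs, 153 in Dp16 and 129 in WT. Bst2 followed with 116 RPKM in Dp16_2xIFNRs, 109 in Dp16 and 98.3 in WT. These 3 genes kept this order in 18 of 18 libraries. Ifitm6, a rodent family member whose role is less well described, had 40.0 RPKM in Dp16_2xIFNRs, 45.2 in Dp16 and 14.2 in WT. Ifitm1, the family member known at the cell surface, had 32.2 RPKM in Dp16_2xIFNRs, 30.6 in Dp16 and 30.5 in WT. Ifitm6 and Ifitm1 were the neighbours whose order was not fixed: Ifitm6 was above Ifitm1 in 11 of 18 libraries and below it in each WT library. Ifitm10, a divergent member not known as an antiviral factor, was lowest with 1.03 RPKM in Dp16_2xIFNRs, 0.906 in Dp16 and 1.53 in WT, and was below Ifitm1 in 18 of 18 libraries.

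The make-up of the family's RNA differed between genotypes mainly in Ifitm6. Ifitm6 made 9.11% ± 1.47 of the summed RPKM of the 5 IFITM genes in Dp16_2xIFNRs, 9.84% ± 2.36 in Dp16 and 3.83% ± 0.489 in WT (SD, n = 6). Ifitm3 made 51.0% ± 1.12 in Dp16_2xIFNRs, 49.8% ± 1.52 in Dp16 and 52.8% ± 1.91 in WT. The sum itself was 442 ± 56.2 RPKM in Dp16_2xIFNRs, 456 ± 61.1 in Dp16 and 371 ± 28.7 in WT. Shares sum to a whole, so a higher share of Ifitm6 lowers the others. Of the remaining family genes, Ifitm5, known for its part in bone, had 0 to 26 counts per library and was not called in either comparison with WT. Ifitm7 had 0 counts in each WT library, 21 counts in 1 Dp16 library and 9 and 2 counts in 2 Dp16_2xIFNRs libraries, and was not tested.

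**Figure D2:**
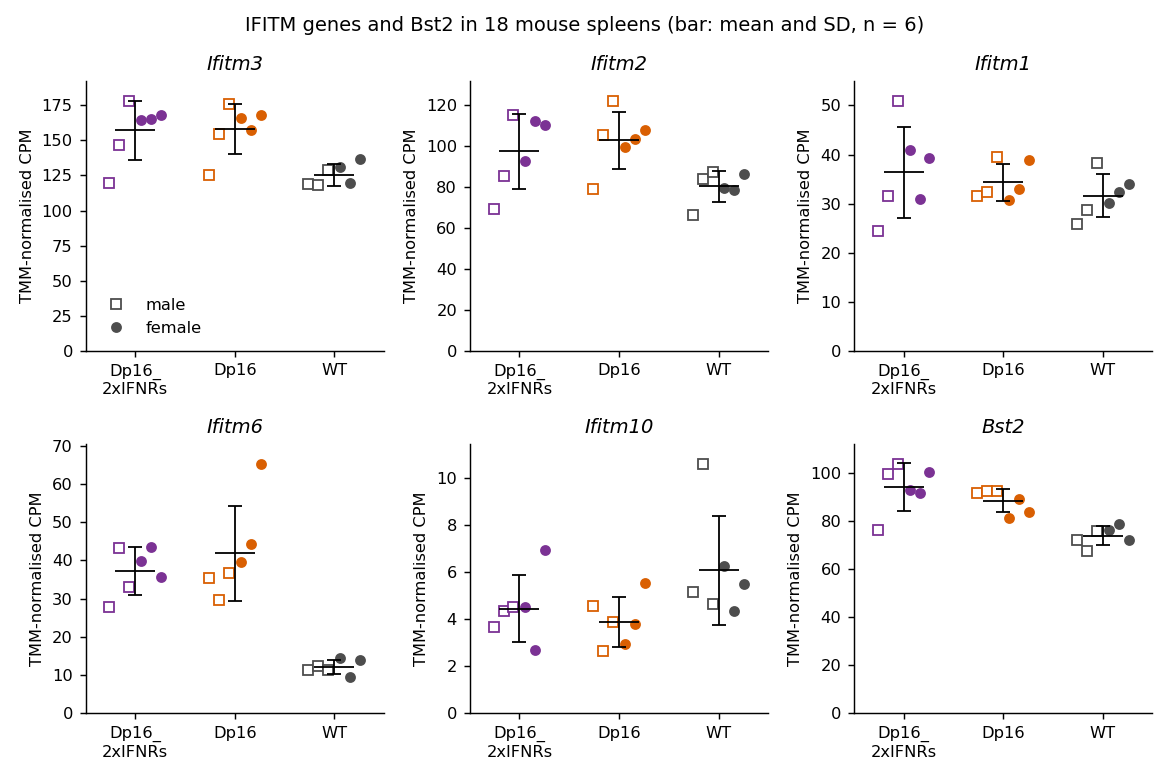
Level of each gene in normalised CPM (vertical axis, from 0) in every library, by genotype, with open points for males, filled points for females, and a bar for the mean and SD of 6 libraries. Ifitm6 in the 6 Dp16_2xIFNRs and 6 Dp16 libraries lies at 27.8 to 65.3, above the 9.65 to 14.5 of WT.

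Dp16 was set against WT to ask what the duplication does to these genes although they lie outside it. Ifitm6, Ifitm2, Ifitm3 and Bst2 rose in Dp16, and Ifitm1 and Ifitm10 did not pass the test. This is 4 of 6 genes higher and 0 lower, where 16.6% of the 18634 tested genes were called higher, 13.2% lower and 29.8% either way (edgeR's quasi-likelihood test, Benjamini-Hochberg adjusted p below 0.05). The median log2 fold change of the 6 genes was 0.30, against -0.01 over all tested genes. In normalised CPM the groups did not overlap for Ifitm6 and Bst2, and no gene of the 6 was lower without overlap. Of all genes, 8.48% were higher, 4.34% lower and 12.8% either way without overlap on this scale.

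Ifitm6 was the gene with the large change. It had 29.7, 38.2 and 65.3 normalised CPM in Dp16 (lowest, median and highest of 6 libraries), against 9.65, 11.9 and 14.5 in WT. All 6 Dp16 libraries were above all 6 WT libraries, and Dp16 replicate 5, at the top, stood well above the next Dp16 library at 44.2. The fold was 3.38 (log2 fold change 1.76 ± 0.14 SE, edgeR adjusted p = 7.38e-08). It was 2.91-fold within males and 3.90-fold within females, and this difference between the sexes was 0.42 on the log2 scale with a 95% interval of -0.14 to 0.99.

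Ifitm3 and Ifitm2 rose to a like extent in Dp16, with partly overlapping groups. Ifitm3 had 125, 162 and 176 normalised CPM in Dp16 (lowest, median and highest), against 118, 124 and 137 in WT. Ifitm2 had 79.0, 104 and 122 normalised CPM in Dp16, against 66.3, 81.6 and 87.0 in WT. For both genes 5 of 6 Dp16 libraries were above the highest WT library in normalised CPM, and the low library was Dp16 replicate 2. By RPKM, Ifitm3 in Dp16 replicates 3 (214.8) and 4 (218.5) also lay below the highest WT library (218.6). The fold was 1.26 for Ifitm3 (log2 0.33 ± 0.09 SE, edgeR adjusted p = 0.00577) and 1.28 for Ifitm2 (log2 0.36 ± 0.11 SE, edgeR adjusted p = 0.0193). The Ifitm2 call was lost without WT replicate 1 (log2 0.31, edgeR adjusted p = 0.0543), without Dp16 replicate 6 (log2 0.29, edgeR adjusted p = 0.0636) and under upper quartile scaling (log2 0.29, edgeR adjusted p = 0.0599).

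Bst2 rose less but with little spread. It had 81.3, 90.4 and 92.7 normalised CPM in Dp16, against 67.8, 74.1 and 78.9 in WT, so that the groups were apart on this scale. By RPKM they overlapped, with the lowest Dp16 library at 102.9 and the highest WT library at 104.5. The fold was 1.20 (log2 0.26 ± 0.07 SE, edgeR adjusted p = 0.00889). When the 4 libraries rich in Gm42418 were left out, the log2 fold change of Bst2 was 0.24 and its edgeR adjusted p was 0.0522.

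Ifitm1 had 30.8, 32.7 and 39.4 normalised CPM in Dp16, against 25.8, 31.3 and 38.3 in WT. Its groups overlapped almost fully, with a log2 fold change of 0.12 (95% interval -0.16 to 0.41, edgeR adjusted p = 0.563). Ifitm10 had 2.65, 3.84 and 5.53 normalised CPM in Dp16, against 4.35, 5.33 and 10.6 in WT. Of the Dp16 libraries, 4 lay below the lowest WT library. Its log2 fold change of -0.64 ± 0.24 SE was just outside the threshold (edgeR adjusted p = 0.0506), and 16 of 31 alternative settings called it lower, with adjusted p from 0.0237 to 0.245 over the 31. Leaving out any 1 of WT replicates 3 and 6, Dp16 replicates 2 and 5 or Dp16_2xIFNRs replicates 3 and 6 was enough for the call (edgeR adjusted p of 0.0237 to 0.0492). Of 12 codes in the sample descriptions, 5 are shared by libraries of different genotypes, and with the code as a random block Ifitm10 was called (log2 -0.67, limma voom adjusted p = 0.0288). The fold depends on WT replicate 4, the high library: without it the log2 fold change was -0.40 (edgeR adjusted p = 0.202).

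On the authors' RPKM values, tested by limma-trend on log2(RPKM + 0.1), the calls in Dp16 were 2 of 6, with Ifitm6 higher and Ifitm10 lower. Ifitm2 (adjusted p = 0.113), Ifitm3 (adjusted p = 0.0687) and Bst2 (adjusted p = 0.0842) then missed the threshold. RPKM divides by the library total without TMM factors, which moved the median of all tested genes to -0.13. Relative to that median the log2 differences were 0.36 for Ifitm2, 0.34 for Ifitm3 and 0.27 for Bst2, close to their TMM values relative to the median there, 0.37, 0.34 and 0.27.

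The comparison of Dp16_2xIFNRs with WT asks what remains when the receptor genes are back at the normal number. Ifitm6, Bst2 and Ifitm3 rose, 3 of 6 genes with 0 lower, where 17.3% of tested genes were called higher, 14.2% lower and 31.4% either way. Both comparisons use the same 6 WT libraries, so their values stand side by side and are not independent of each other. The groups did not overlap for Ifitm6, and none was lower without overlap, where 6.83% of all genes were higher, 5.75% lower and 12.6% either way without overlap.

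Ifitm6 had 27.8, 37.8 and 43.6 normalised CPM in Dp16_2xIFNRs, against 9.65, 11.9 and 14.5 in WT. The lowest Dp16_2xIFNRs library was well above the highest WT library. The fold was 3.04 (log2 1.61 ± 0.14 SE, edgeR adjusted p = 2.05e-07). Bst2 had 76.5, 96.2 and 104 normalised CPM in Dp16_2xIFNRs, against 67.8, 74.1 and 78.9 in WT, and replicate 1 was the library that overlapped WT. Its fold was 1.27 (log2 0.35 ± 0.07 SE, edgeR adjusted p = 0.000924).

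Ifitm3 had 120, 165 and 178 normalised CPM in Dp16_2xIFNRs, against 118, 124 and 137 in WT, a fold of 1.25 (log2 0.32 ± 0.09 SE, edgeR adjusted p = 0.0064). Dp16_2xIFNRs replicate 1 was its low library too, and the other 5 were above all WT libraries in normalised CPM. By RPKM, Dp16_2xIFNRs replicate 4 (211.2) was also below the highest WT library (218.6). On log2(RPKM + 0.1) the limma-trend adjusted p of Ifitm3 was 0.0808. Ifitm2 had 69.2, 101 and 115 normalised CPM in Dp16_2xIFNRs, against 66.3, 81.6 and 87.0 in WT, with 4 of 6 above the highest WT library. Its fold of 1.21 missed the threshold (log2 0.28 ± 0.11 SE, edgeR adjusted p = 0.0681). Without Dp16_2xIFNRs replicate 1 it was called (edgeR adjusted p = 0.0109), and likewise with the replicate number as a block (edgeR adjusted p = 0.0287) and by limma voom with quality weights (adjusted p = 0.0366).

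Ifitm1 varied most among its Dp16_2xIFNRs libraries, which reached both above and below WT: 24.5, 35.4 and 50.9 normalised CPM in Dp16_2xIFNRs, against 25.8, 31.3 and 38.3 in WT. Its log2 fold change was 0.20 ± 0.14 SE (edgeR adjusted p = 0.292). Ifitm10 had 2.71, 4.43 and 6.96 normalised CPM in Dp16_2xIFNRs, against 4.35, 5.33 and 10.6 in WT, with a log2 fold change of -0.45 ± 0.24 SE (edgeR adjusted p = 0.173).

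**Figure D3:**
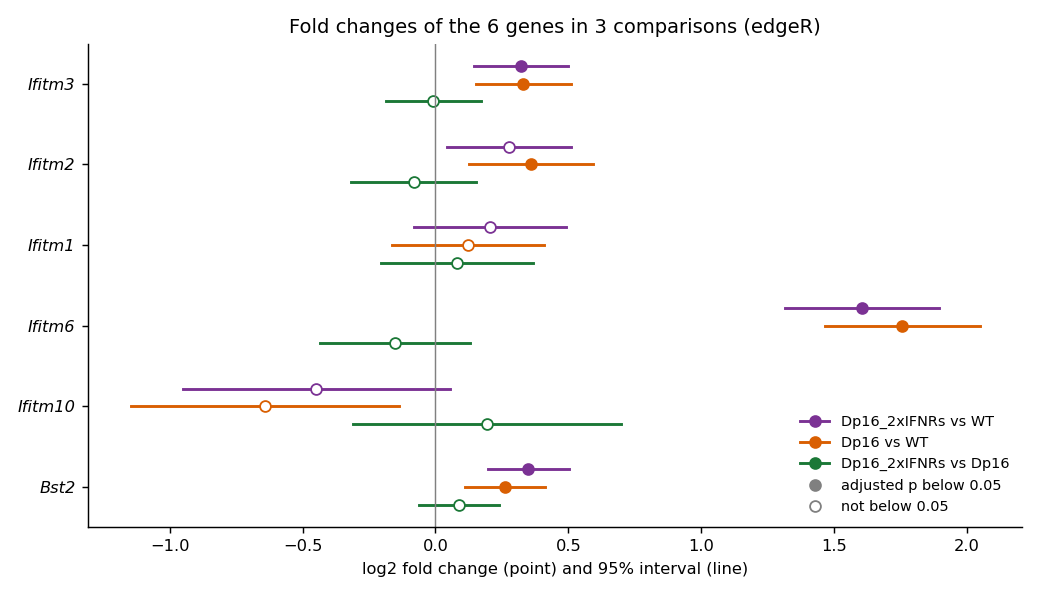
Log2 fold change of each gene (point) with its 95% interval (line) in the 3 comparisons, filled where the edgeR adjusted p was below 0.05. Against WT, Ifitm6 stands at 1.61 in Dp16_2xIFNRs and at 1.76 in Dp16, and the 6 intervals of Dp16_2xIFNRs vs Dp16 all cover 0.

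The comparison of Dp16_2xIFNRs with Dp16 asks what the additional receptor copies themselves add. No gene of the 6 was called by edgeR, by DESeq2 or by limma voom, and 0 of 6 had an unadjusted edgeR p below 0.05. Of all tested genes 0.0215% were called in this comparison, all of them lower. No gene of the 6 was apart without overlap, where 0.0537% of all genes were higher, 0.0322% lower and 0.0859% either way. The intervals say how large a difference may have been missed. For Ifitm3 the log2 difference was -0.01, with a 95% interval of -0.19 to 0.17. For Bst2 it was 0.09, with an interval of -0.06 to 0.24. For Ifitm2 it was -0.08 (-0.32 to 0.15) and for Ifitm6 it was -0.15 (-0.43 to 0.13). For scale, the log2 difference between Dp16 and WT was 0.33 for Ifitm3 (95% interval 0.15 to 0.51) and 0.26 for Bst2 (0.11 to 0.41). It was 0.36 for Ifitm2 (0.12 to 0.59) and 1.76 for Ifitm6 (1.47 to 2.05). Both comparisons rest on the same Dp16 libraries and were not tested against each other. Ifitm1 at 0.08 (-0.20 to 0.37) and Ifitm10 at 0.19 (-0.31 to 0.70) had the wider intervals. The sign of the Ifitm1 difference turned without Dp16_2xIFNRs replicate 5 (log2 -0.06), and that of Ifitm3 turned without Dp16_2xIFNRs replicate 1 (log2 0.05) or without Dp16 replicate 6 (log2 0.05).

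Between females and males, 0 of 6 genes were called by edgeR, where 0.258% of all genes were, and 1 had an unadjusted p below 0.05. That gene was Ifitm6, with a log2 difference of 0.29 (edgeR adjusted p = 0.422). The interaction of sex with either genotype gave 0 calls among the 6 by edgeR, DESeq2 and limma voom, and 0 unadjusted edgeR p below 0.05.

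Interferon-stimulated antiviral genes outside the duplicated stretch served as a comparison list for the interferon pathway. Of 40 such genes, 11 rose and 6 fell in Dp16_2xIFNRs vs WT, with a median log2 fold change of 0.10. In Dp16 vs WT 12 rose and 6 fell, with a median of 0.15. Of all tested genes, 17.3% were called higher and 14.2% lower in Dp16_2xIFNRs vs WT. In Dp16 vs WT these shares were 16.6% and 13.2%. Single genes of the list ranged from -0.63 to 1.96 on the log2 scale in Dp16_2xIFNRs. In Dp16 they ranged from -0.63 to 2.13. The 2 genes with the smallest p in Dp16 vs WT went opposite ways, and other genes rose further. Irf7, a transcription factor that amplifies type I interferon production, rose with a log2 fold change of 0.54 in Dp16_2xIFNRs (edgeR adjusted p = 0.000886) and 0.76 in Dp16 (edgeR adjusted p = 6.56e-05). Ddx58, which encodes the viral RNA sensor RIG-I, fell by 0.63 on the log2 scale in Dp16_2xIFNRs (edgeR adjusted p = 5.66e-05) and by 0.56 in Dp16 (edgeR adjusted p = 0.000151). In Dp16_2xIFNRs vs Dp16, 0 of 40 were called by edgeR, with a median of -0.06.

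Genes whose products act with or on IFITM proteins were also followed. Of 9, 0 rose and 5 fell in Dp16_2xIFNRs, and 1 rose and 3 fell in Dp16. Setd7, a methyltransferase reported to modify IFITM3, fell by 0.45 on the log2 scale in Dp16_2xIFNRs (edgeR adjusted p = 0.0017) and by 0.44 in Dp16 (edgeR adjusted p = 0.00213). Cr2, a complement receptor gene of B cells, fell by 0.82 in Dp16_2xIFNRs and by 0.77 in Dp16. The B cell marker list, which also holds Cr2, had 9 of 9 genes lower in both comparisons. The palmitoyltransferase gene Zdhhc20 (log2 -0.28, edgeR adjusted p = 0.0239) and the ubiquitin ligase gene Nedd4 (log2 -0.24, edgeR adjusted p = 0.0412) fell in Dp16_2xIFNRs, while in Dp16 they were at -0.16 (edgeR adjusted p = 0.203) and -0.23 (edgeR adjusted p = 0.0555). Zmpste24, a protease gene, rose by 0.25 in Dp16 (edgeR adjusted p = 0.0191) and was at 0.18 in Dp16_2xIFNRs (edgeR adjusted p = 0.094). Cd81, Vapa and Kdm1a were not called in either comparison, with log2 values of -0.07 to 0.08.

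**Figure D4:**
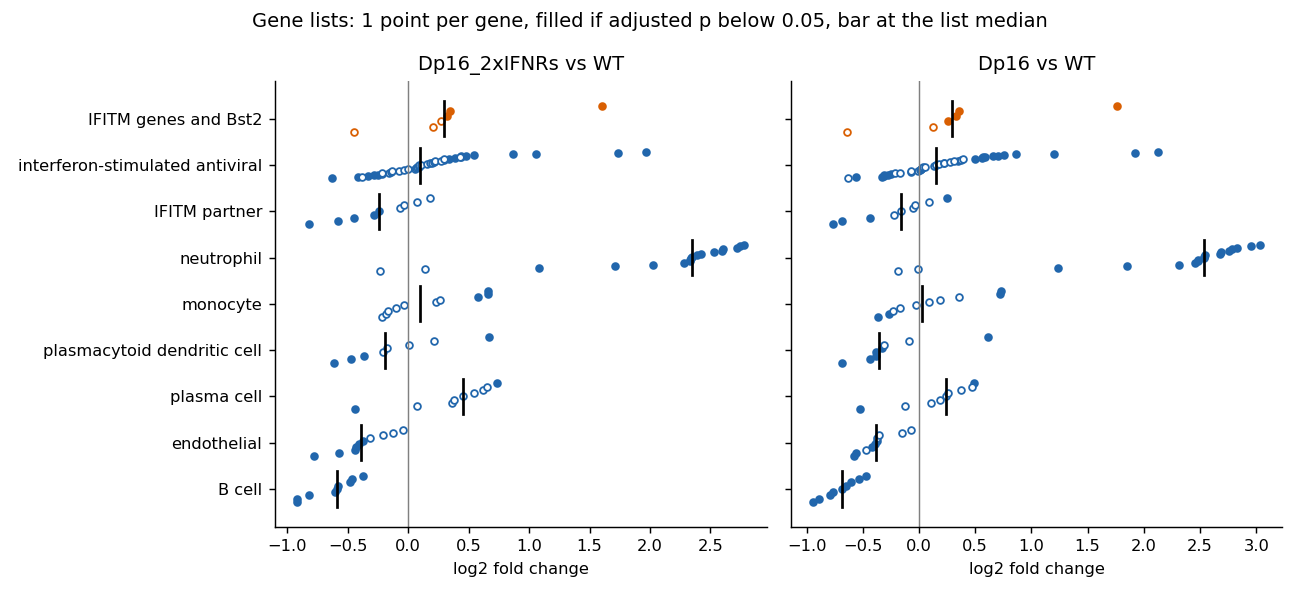
Log2 fold change of each gene of the lists drawn, with the list median as a bar, for Dp16_2xIFNRs vs WT and Dp16 vs WT. Points are filled where the edgeR adjusted p was below 0.05. The neutrophil markers lie mostly to the right in both, with medians of 2.34 in Dp16_2xIFNRs and 2.53 in Dp16, and the B cell markers to the left.

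Marker genes of many spleen cell types, though not all, moved with the genotypes. Fewer cells of a type and less RNA per cell cannot be told apart in whole tissue. T cell markers moved little, with 0 higher and 1 lower of 8 in Dp16_2xIFNRs, and 0 higher and 2 lower in Dp16. The summed T cell level was 724 to 1036 normalised CPM in Dp16_2xIFNRs, 845 to 1003 in Dp16 and 746 to 971 in WT. Neutrophil markers were higher in 16 of 18 genes in both comparisons with WT. Cxcr2 and Csf3r, named because they were the 2 that were not called, had log2 fold changes of -0.24 and 0.14 in Dp16_2xIFNRs and -0.19 and -0.01 in Dp16. Their summed level was 3952 to 6539 normalised CPM in Dp16_2xIFNRs, 3518 to 11422 in Dp16 and 555 to 2121 in WT. The highest sum, 11422, was in Dp16 replicate 5, which also had the highest Ifitm6. The same library also had the highest sums of 18 libraries for megakaryocyte markers (1380 normalised CPM), basophil and mast cell markers (199.7 normalised CPM) and red pulp macrophage markers (3758 normalised CPM). Monocyte markers were mixed. Ly6c2, a surface antigen gene of classical monocytes, rose with a log2 fold change of 0.58 in Dp16_2xIFNRs (edgeR adjusted p = 0.000207) and 0.73 in Dp16 (edgeR adjusted p = 3.35e-05). F13a1, a coagulation factor gene, rose by 0.66 in Dp16_2xIFNRs (edgeR adjusted p = 0.00913) and 0.72 in Dp16 (edgeR adjusted p = 0.00532). The summed level of the list overlapped between genotypes: it was 804 to 867 normalised CPM in Dp16_2xIFNRs, 668 to 916 in Dp16 and 766 to 930 in WT, with 3 higher and 0 lower of 10 in Dp16_2xIFNRs and 2 higher and 2 lower in Dp16. Megakaryocyte and erythroid markers were each called higher in 10 of 10 genes in both comparisons. Basophil and mast cell markers were higher in 6 of 8 genes in both, with sums of 79.7 to 160 normalised CPM in Dp16_2xIFNRs, 68.2 to 199.7 in Dp16 and 29.1 to 50.3 in WT. Red pulp macrophage markers were higher in 4 of 8 genes in both, with sums of 2870 to 3373 normalised CPM in Dp16_2xIFNRs, 2614 to 3758 in Dp16 and 2268 to 3386 in WT, and no gene of either list was lower. No marker of these lists was at 0 in all libraries. The part of neutrophils, monocytes, basophils, macrophages, megakaryocytes or red cell precursors in the rise of Ifitm6 was not tested.

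The summed level of the plasmacytoid dendritic cell list, a cell type that tetherin is known to mark, did not rise with Bst2. It was 664 to 811 normalised CPM in Dp16_2xIFNRs, 623 to 771 in Dp16 and 805 to 1124 in WT. Genes of high level weigh most in this sum, such as Spib (mean log2 CPM 8.13), at log2 -0.61 in Dp16_2xIFNRs and -0.68 in Dp16. Of the 8 genes, 1 rose and 3 fell in Dp16_2xIFNRs, and 1 rose and 5 fell in Dp16. Siglech was not called in either comparison, at log2 0.007 in Dp16_2xIFNRs and -0.31 in Dp16. The gene that rose in both was Cox6a2. The sum is therefore not a measure of how many of these cells there were. Single genes ranged from -0.61 to 0.67 on the log2 scale in Dp16_2xIFNRs and from -0.68 to 0.62 in Dp16. Whether other cell types contribute to the sum was not tested. Plasma cell markers summed to 2098 to 3347 normalised CPM in Dp16_2xIFNRs, 1858 to 2831 in Dp16 and 1251 to 2543 in WT, with 1 of 9 higher and 1 lower in each comparison. Endothelial markers, from cells that also make IFITM proteins, summed to 429.5 to 475.8 normalised CPM in Dp16_2xIFNRs, 423 to 468 in Dp16 and 516 to 687 in WT, with 0 higher and 6 lower of 10 in Dp16_2xIFNRs and 0 higher and 5 lower in Dp16. The part of these cell types in the levels of Bst2 and the IFITM genes was not tested.

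**Figure D5:**
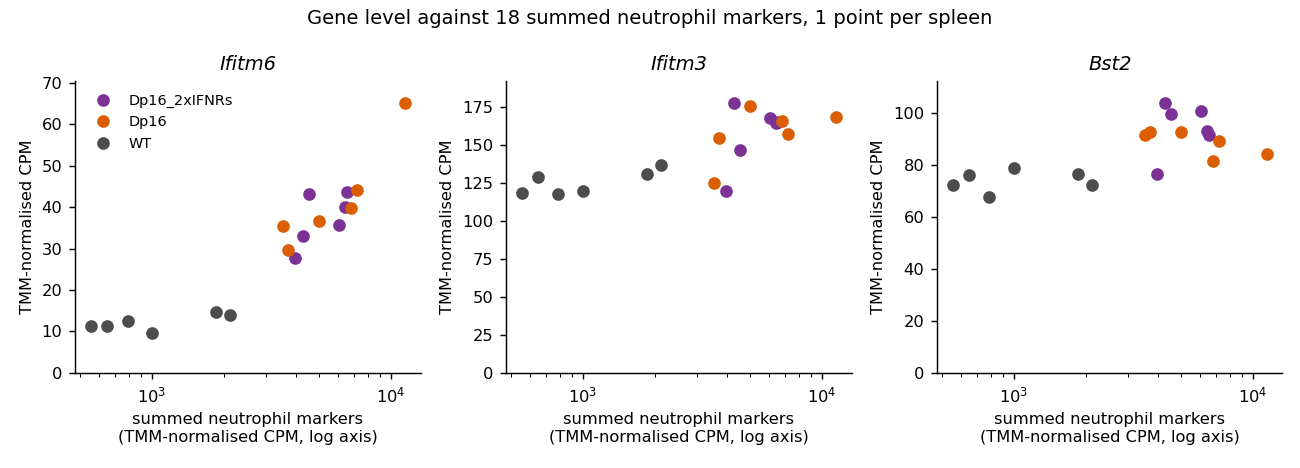
Level of Ifitm6, Ifitm3 and Bst2 in normalised CPM (vertical axes) against the summed level of 18 neutrophil markers (horizontal axis, log scale), 1 point per spleen, coloured by genotype. The highest Ifitm6 point, 65.3, is Dp16 replicate 5, which has the highest neutrophil marker sum, 11422, and also the highest megakaryocyte, basophil and mast cell, and red pulp macrophage sums.

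The 6 genes did not vary together as a block among libraries of a genotype. After removal of the genotype means, log2 CPM of Ifitm2 and Ifitm3 had a Pearson r of 0.89 and a Spearman rho of 0.79 over 18 libraries, the closest pair. Ifitm1 had r of 0.72 (rho 0.60) with Ifitm2 and 0.72 (rho 0.65) with Ifitm3. Bst2 was closest to Ifitm1, with r of 0.64 and rho of 0.43. Ifitm6 was at r of -0.05 (rho -0.31) with Bst2 and 0.43 (rho 0.30) with Ifitm3. Ifitm10 had r of at most 0.36 with any other gene of the 6. These correlations are descriptions: all values come from the same libraries and share their depth and scaling.

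The genes most alike by this measure, over 12533 candidates, differed between members. For Ifitm6 they were Pygl, a glycogen phosphorylase gene (r 0.89), Pf4, which encodes a platelet chemokine and stands in the megakaryocyte list (r 0.86), and P2rx1, which encodes an ATP-gated channel (r 0.84). Dp16 replicate 5 was the highest library for both Ifitm6 and the megakaryocyte sum, and its weight in these r values was not tested. For Ifitm2 they were Rhoc (0.89), S100a6 (0.87) and Rarres2 (0.85). For Ifitm3 they were Trappc2 (0.91), Supt3 (0.90) and Serpina1e (0.87). For Bst2 they were Gadd45b (0.87), Ly6a, an interferon-responsive surface antigen gene (0.86), and Nme2 (0.85). For Ifitm1 they were Aldh3a1 (0.82), Stbd1 (0.79) and Lgals1 (0.79). For Ifitm10 they were Xrcc5 (0.88), Med16 (0.87) and Mcrs1 (0.86).

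Genes beside the members gave no common direction. Of 18 protein-coding genes within 50 kb, 11 were tested. In Dp16_2xIFNRs vs WT 2 were higher and 1 lower, with a median log2 fold change of -0.15. Of all tested genes 17.3% were higher and 14.2% lower there. In Dp16 vs WT 2 were higher and 3 lower, with a median of -0.08, against 16.6% and 13.2% of all tested genes. The higher ones in both were Nlrp6 and Ctsd. Nlrp6, an inflammasome sensor gene 25645 bases from Ifitm2, was at log2 1.76 ± 0.47 SE in Dp16_2xIFNRs and 1.72 ± 0.47 SE in Dp16. Its level was low, with a mean log2 CPM of -0.32. Ctsd, the gene of a lysosomal protease 2158 bases from Ifitm10, was at log2 0.33 in Dp16_2xIFNRs and 0.35 in Dp16. Pgghg, which lies 7173 bases from Ifitm2, was not called in either comparison.

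Sequence shared between genes limits how exactly reads can be assigned. In Ifitm2, 268 of 655 exonic bases (40.9%) overlap Gm45717 on the same strand, and Gm45717 had 0 to 13 counts. In Ifitm2, 48.5% of 50-base windows also occur in another gene, against 10.0% in Ifitm3, 6.36% in Ifitm1 and 5.00% in Ifitm10. Over 150 bases, the labelled read length, 23.5% of Ifitm2 windows were shared, all with Gm45717, and 2.08% of Ifitm10 windows. Ifitm6 and Bst2 shared no window of either length. The levels of Ifitm2 and its closeness to Ifitm3 are therefore the least certain of the 6, and those of Ifitm6 and Bst2 rest on sequence of their own.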

How the data were processed

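Poly(A) RNA of 18 spleens was sequenced strand-specifically in paired reads of 150 bases, per the labels' protocols. Per the submitters' processing notes, the build was GRCm38 and the tools named, without roles, were HTSeq 0.6.1 as well as SAMtools 1.5, bcl2fastq, HISAT2 2.1.0 and FastQC 0.11.5. How strand was set in counting is not given in the sources used here. The authors deposited whole-number read counts per gene and RPKM values. Over 11538 well-covered genes each deposited RPKM equalled the count scaled by library total and 1 gene length (largest relative deviation 6.7e-16).

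Groups were taken from the sample titles. Counts of the 18 libraries were fitted together by edgeR 4.0.16's quasi-likelihood method (R 4.3.3, robust, TMM, filterByExpr by genotype, terms for genotype and sex), and p-values were adjusted over all 18634 genes by Benjamini-Hochberg, with calls below 0.05. A further fit held the interaction of sex and genotype. Errors are standard errors of the fit or SDs over libraries. The SDs measure the spread between animals of these groups, and the standard errors the precision of the fitted difference. Like-pattern genes were the 3 protein-coding genes with the highest Pearson r of log2 CPM (prior count 2). From each comparison list at most the 2 genes with the smallest p in Dp16 vs WT were named, besides the genes of the IFITM partner list, of which 1 is counted but not reported by name here. Cxcr2 and Csf3r of the neutrophil list, and Siglech and Cox6a2 of the plasmacytoid dendritic cell list, fall outside this rule. They were chosen after their values were seen. The members and lists were chosen with earlier results of these data known.

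Alternatives were RLE and upper quartile scaling, DESeq2 1.42.0, limma 3.58.1 (voom, and limma-trend on RPKM), other filters, no sex term, blocks, fits on the 12 libraries of a contrast, and omission of libraries. Titles share sample numbers across genotypes: with genotype means removed, same-numbered libraries had a mean correlation of 0.019 over 18 pairs, against -0.0038 for other pairs, so the numbers were not taken to pair animals.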

Additional observations from a re-analysis of the deposited data

Results flagged for a closer look

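Ifitm10 in WT replicate 4 stood apart from the other WT libraries at 10.6 normalised CPM, by Dixon's criterion for 6 samples. It was the 1 of 18 groups tested in which a library stood apart, and chance flags about 1 in 20 groups. The same library had the highest share of counts on Gm42418, 5.51%. Without it the log2 fold change of Ifitm10 was -0.21 in Dp16_2xIFNRs vs WT (edgeR adjusted p = 0.549) and -0.40 in Dp16 vs WT (edgeR adjusted p = 0.202). The part of this library's quality in the value was not tested.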

How the results depend on the processing

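Ifitm6 was called higher in 31 of 31 alternatives against WT, with log2 fold changes of 1.43 to 1.68 in Dp16_2xIFNRs and likewise in 31 of 31, of 1.56 to 1.84, in Dp16. The number of the 6 genes called in Dp16 vs WT was 2 under limma-trend on log2(RPKM + 0.1) and 2 on log2(RPKM + 1), against 4, and the shift of the median of all genes on that scale stands in the report. Leaving out each library in turn gave 3 to 4 calls for Dp16_2xIFNRs against WT, 3 to 5 for Dp16 against WT, and 0 for Dp16_2xIFNRs against Dp16. In Dp16_2xIFNRs vs Dp16, Ifitm1 reversed to a log2 value of -0.10 without the libraries rich in Gm42418, and leaving out each library gave -0.0595 to 0.175 for Ifitm1 and -0.0671 to 0.0530 for Ifitm3. The cause was not tested. With the replicate number as a block, 4 genes were called in Dp16_2xIFNRs vs WT, 4 in Dp16 vs WT and 0 between both duplication genotypes; Ifitm2 in Dp16_2xIFNRs vs WT was the call that the block changed. Counts of genes called over the whole table moved by less than 1.5 times under the block. Ifitm10 had the fewest counts of the 6 genes, 105 to 429 per library.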
